A study of Homo sapiens with 36 samples.

Results

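The mitochondrial DNA-encoded transcripts are the 37 genes that GENCODE release 29 places on chromosome M of the human genome build GRCh38, the 13 mRNAs, 2 ribosomal RNAs (rRNAs) and 22 transfer RNAs (tRNAs) whose symbols begin with MT-. They were found in every table by their Ensembl identifier without its version, 37 of 58219 genes in the RNA tables and 37 of 43582 in the ribosome footprint tables. The cells were WiT49, an established line from an anaplastic Wilms tumor, a childhood kidney cancer. Actinomycin D (actD), which intercalates into DNA and blocks transcription, was given at 2 nM, and dimethyl sulfoxide (DMSO) served as the vehicle control. Treatment lasted 6 h, 72 h or 2 weeks. At 2 weeks the exposure was interrupted, with 3 days of actD or DMSO followed by 4 days in plain medium and this 7-day cycle run 2 times. Each time point had 3 actD and 3 DMSO libraries of total RNA, and as many of ribosome footprints, the short fragments that translating ribosomes protect from nuclease.

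The labels of the 2-week RNA libraries conflict, since titles and treatment entries assign each library to the opposite arm from its library name, which is also its column name. The arms are therefore given by library name, as "named actd" and "named dmso", and each difference is named actd minus named dmso. With the titles taken as right, every 2-week RNA difference below has the opposite sign. All the groups share 1 cell line, and no label says that the 3 libraries of a group came from separate cultures, so p-values measure the spread between these libraries, which may be technical. The RNA held the marker transcripts IGF2 at 1079 to 2164 CPM (counts after scaling each library to the same size) and WT1 at 3.57 to 37.4, with the epithelial keratin KRT8 at 581 to 4005 and the mesenchymal gene VIM at 146 to 410. The nephron progenitor genes SIX2, PAX2, PAX8, EYA1, CITED1 and SALL1 lay under 1 CPM in every RNA library, and the markers of blood, endothelium, striated muscle and podocytes reached at most 0.431 CPM.

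Human mitochondrial DNA is a small circle that is transcribed from both strands into long precursors that cover many genes. The tRNAs lie between the mRNAs and rRNAs, and the enzymes that cut out the tRNAs free their neighbours at the same time. The mRNAs encode core subunits of the respiratory chain and of ATP synthase, and the rRNAs form the ribosomes inside mitochondria that translate them. Transcription uses a polymerase of its own, POLRMT, that is encoded in the nucleus. MT-ND6 and a minority of the tRNAs are read from the minus strand of the annotation, and all other members from the plus strand.

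Of the 13 mRNAs, 1 was on the minus strand, as were 8 of the 22 tRNAs, and lengths ran from 207 to 1812 bases for mRNAs and from 59 to 75 for tRNAs. Reads of short and overlapping members cannot always be given to 1 of them, so the sequences that the results turn on are shown first, from the GRCh38 reference, each 5′ to 3′ on the strand of its gene. The first set is the cluster of 4 minus-strand tRNAs for alanine, asparagine, cysteine and tyrosine, of which all 4 had an unadjusted p under 0.05 in RNA at 6 h, with no call. Capitals mark bases that a member shares with its neighbour, here the single base at position 5826 that MT-TC and MT-TY share.
MT-TA, chrM:5587-5655, minus strand: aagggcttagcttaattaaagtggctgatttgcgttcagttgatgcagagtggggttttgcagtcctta
MT-TN, chrM:5657-5729, minus strand: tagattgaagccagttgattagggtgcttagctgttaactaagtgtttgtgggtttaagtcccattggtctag
MT-TC, chrM:5761-5826, minus strand: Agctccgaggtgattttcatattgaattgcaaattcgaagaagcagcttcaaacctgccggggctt
MT-TY, chrM:5826-5891, minus strand: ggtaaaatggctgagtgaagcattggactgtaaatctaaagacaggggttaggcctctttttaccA

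The second set holds the tRNA with the lowest p-value among the members, MT-TL1 for leucine, and the tRNA for isoleucine, MT-TI, which shares 3 bases with MT-TQ for glutamine on the other strand.
MT-TL1, chrM:3230-3304, plus strand: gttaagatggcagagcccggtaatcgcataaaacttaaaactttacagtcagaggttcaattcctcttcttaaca
MT-TI, chrM:4263-4331, plus strand: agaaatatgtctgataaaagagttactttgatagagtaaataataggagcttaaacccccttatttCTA
MT-TQ, chrM:4329-4400, minus strand: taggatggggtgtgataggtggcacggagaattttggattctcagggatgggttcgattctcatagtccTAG

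The third set shows the ends of 2 pairs of coding sequences that overlap on the plus strand and are carried on shared mRNAs. MT-ATP8 and MT-ATP6 share 46 bases, chrM:8527-8572, longer than a ribosome footprint, and MT-ND4L and MT-ND4 share 7 bases, chrM:10760-10766. The start codon of the downstream gene opens each stretch of capitals.
MT-ATP8, last bases, chrM:8513-8572: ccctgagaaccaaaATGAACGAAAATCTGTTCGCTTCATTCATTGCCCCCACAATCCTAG
MT-ATP6, first bases, chrM:8527-8586: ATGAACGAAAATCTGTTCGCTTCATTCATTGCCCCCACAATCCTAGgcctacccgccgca
MT-ND4L, last bases, chrM:10707-10766: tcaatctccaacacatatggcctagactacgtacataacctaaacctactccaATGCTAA
MT-ND4, first bases, chrM:10760-10819: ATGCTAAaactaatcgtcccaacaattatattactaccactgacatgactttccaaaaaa
Values of MT-ATP8 and MT-ATP6, and of MT-ND4L and MT-ND4, are therefore given with the doubt that counts may be split between them.

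Depth set what could be seen. RNA libraries held 40221994 to 69240041 counts, and no member was at 0 in any of them. Footprint libraries held 152556 to 1281039 counts, of which the 13 mRNAs together took between 118 and 793 in the 6 h libraries, between 26 and 242 in the 72 h ones and between 77 and 172 in the 2-week ones. Between 1 and 11 members were at 0 in a footprint library at 6 h, against 10 to 17 after 72 h and 7 to 12 after 2 weeks. A count of 0 allows up to 3 counts, a limit that covers counting error alone, because PCR copies of a molecule are counted too. At 6 h the footprint library of DMSO replicate 1 and that of actD replicate 3 stood apart, with 92.8 and 90.6 rRNA counts per mRNA count against 5.72 to 25.1 in the other 4. In RNA at 72 h, actD replicate 3 stood apart, with 0.786% of its counts in the 13 mRNAs against 1.23% to 1.78% in the other 5.

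The share of a library that each class took was compared first, because all members of a class add to it. RNA at 6 h gave 2 classes whose arms overlapped. The mRNA share was 0.286%, 0.303% and 0.385% in actD replicates 1, 2 and 3 and 0.394%, 0.341% and 0.368% in DMSO. The rRNA share was 7.71% ± 0.45 (SD, n = 3) in actD and 7.76% ± 0.68 (SD, n = 3) in DMSO. The tRNA share did not overlap, at 0.00725%, 0.00767% and 0.0091% in actD and 0.0128%, 0.00963% and 0.00994% in DMSO, a ratio of the means of 0.743. Of the 3 classes, the tRNAs were the one with every actD library below every DMSO library at 6 h. With 3 libraries against 3 an exact permutation test cannot go below p = 0.1, and no p-value is given for class sums. These are shares of bulk RNA, in which fewer mitochondria-rich cells and less mitochondrial RNA per cell cannot be told apart.

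**Figure D1:**
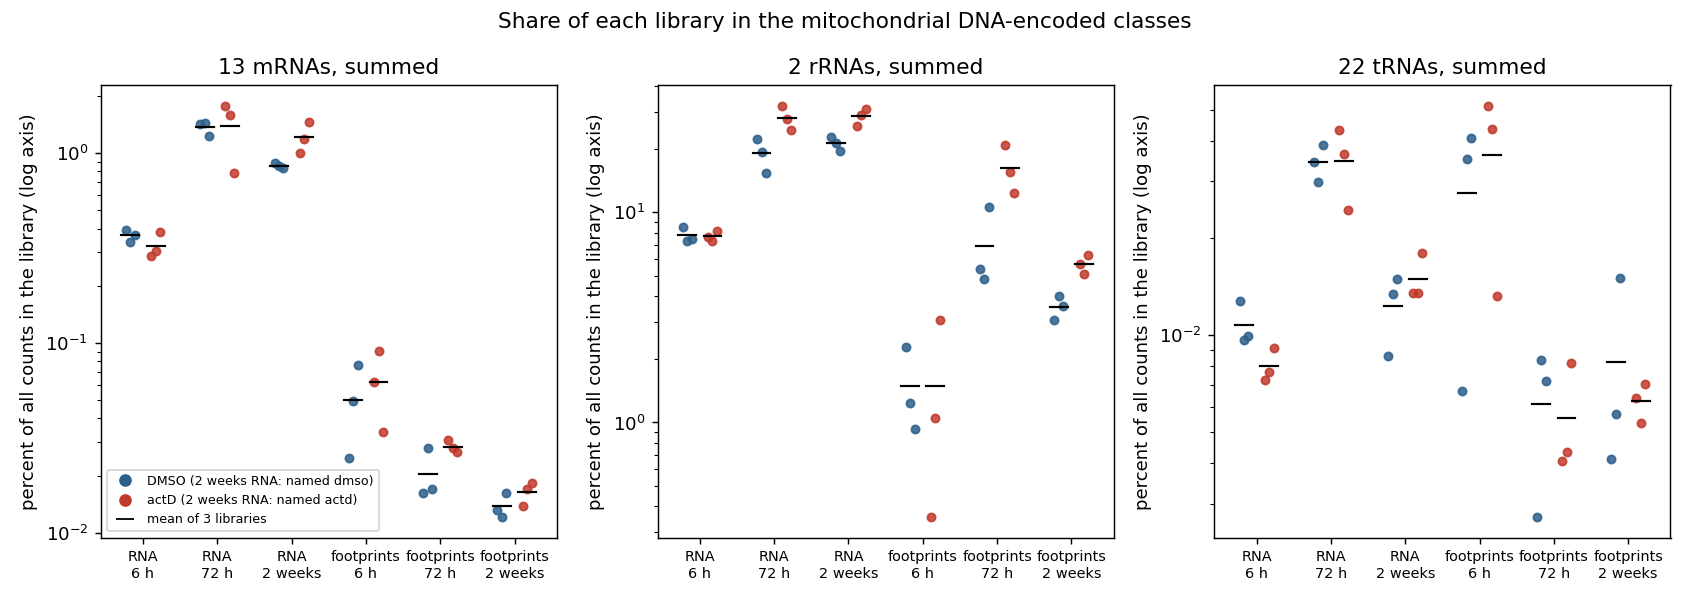
Share of each library's counts, in percent on a log axis, taken by the 13 mRNAs, the 2 rRNAs and the 22 tRNAs, by assay and time point. Points are the 3 libraries of an arm and short lines are arm means, with the 2-week RNA arms as the library names give them. The rRNA shares lie above the mRNA and tRNA shares in all 6 tables, and the rRNA arms are apart at 72 h and 2 weeks in both assays.

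After 72 h the rRNAs were the class whose shares did not overlap. Most rRNA counts were of MT-RNR2, since the other rRNA, MT-RNR1, made up 5.72% to 9.16% of them and had overlapping arms. The rRNA share of RNA was 32.3%, 27.8% and 24.6% in actD and 22.5%, 19.4% and 15.5% in DMSO, a ratio of the means of 1.48 with no overlap. Whether library preparation removed part of the rRNA from the RNA libraries, here and at the other time points, was not tested. The mRNA share was 1.39% ± 0.53 (SD, n = 3) in actD and 1.36% ± 0.12 (SD, n = 3) in DMSO, and the tRNA share was 0.0347% against 0.0344%, so both overlapped. As a result each mRNA count came with 18.2, 17.4 and 31.3 rRNA counts in actD and with 15.9, 13.4 and 12.6 in DMSO, and these arms did not overlap. Leaving out actD replicate 3, the library with the low mRNA share, the remaining actD values of 18.2 and 17.4 still lay above the DMSO values.

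At 2 weeks mRNAs and rRNAs were both higher in the libraries named actd. The mRNA share of RNA was 1.00%, 1.19% and 1.45% in named actd and 0.881%, 0.85% and 0.835% in named dmso, a ratio of 1.42. For rRNA it was 25.8%, 29.1% and 31.2% against 22.9%, 21.4% and 19.6%, a ratio of 1.35, and neither class overlapped. The tRNA share was 0.0135%, 0.0135% and 0.0179% against 0.00858%, 0.0134% and 0.0149%, and overlapped. rRNA counts per mRNA count were 23.9 in named actd and 24.9 in named dmso on average and overlapped, which differs from the 72 h libraries.

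In the footprints, too, the rRNA arms were apart at 72 h and 2 weeks, while at 6 h they overlapped. rRNA fragments took 21.0%, 15.6% and 12.4% of the footprint counts in actD at 72 h and 5.38%, 4.8% and 10.6% in DMSO, a ratio of 2.35. The 2-week shares were 5.66%, 5.10% and 6.24% in actD and 3.07%, 4.00% and 3.59% in DMSO, a ratio of 1.60, also without overlap. Footprint libraries were depleted of rRNA before sequencing, so these shares measure what the depletion left, and the part of depletion in the difference was not tested. Counted per nuclear protein-coding count, the 72 h arms overlapped, at 58.1, 50.7 and 30.7 against 19.6, 12.5 and 60.6 per 100. That denominator includes nuclear genes that resemble MT-RNR2. Of these MTRNR2L12 alone had 6184 to 112350 counts at 72 h, where a library held 26805 to 283193 nuclear protein-coding counts. Such counts made up 2.06% to 40.3% of a footprint library, so footprint shares are shares of mostly other counts. The mRNA shares of the footprints overlapped at 6 h, 72 h and 2 weeks, with means of 0.0623%, 0.0284% and 0.0164% in actD and 0.0503%, 0.0203% and 0.0138% in DMSO. tRNA shares of the footprints overlapped at the 3 time points as well.

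Each member was then tested with edgeR's quasi-likelihood test, fitted over all genes of a table, with Benjamini-Hochberg adjustment and calls at an adjusted p under 0.05. Differences are log2 fold changes, actD minus DMSO, and levels of a member are CPM after TMM scaling, which sets libraries to a common size. By edgeR 0 members were called in each of the 12 comparisons made. The share of all genes called was 0% in RNA at 6 h, 0.00472% at 72 h and 0% at 2 weeks.

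RNA at 6 h showed differences of which most pointed down and none was called, and 4 of the 5 with the lowest p-values were in the minus-strand tRNA cluster shown above. Of the 36 members tested, 0 were called by edgeR, and 0 by DESeq2, which called 0.869% of all genes. An unadjusted p under 0.05 was found for 5, all lower in actD, against 8.21% of all genes. The 5 were MT-TA, MT-TN, MT-TC, MT-TY and MT-CO2. MT-TA read 2.69, 3.44 and 4.6 CPM in actD and 8.93, 5.32 and 5.11 in DMSO, a difference of -0.85 ± 0.28 (SE; edgeR adjusted p = 0.544). For MT-TN the values were 5.64, 7.44 and 9.37 against 18.0, 11.2 and 10.5 (-0.82 ± 0.26, edgeR adjusted p = 0.511). MT-TC stood at 8.82, 11.6 and 13 against 24.9, 15.9 and 14.8 (-0.74 ± 0.23, edgeR adjusted p = 0.508). These 3 tRNAs, for alanine, asparagine and cysteine, had every actD library below every DMSO library, a count of 3 in 36 that is close to the 8.17% of all genes, and DMSO replicate 1 was the highest library for each. No member had every actD library above every DMSO library, as 7.66% of all genes had.

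MT-TY, the tyrosine tRNA that ends the cluster, read 7.83, 9.06 and 14.5 CPM in actD and 20.5, 13.8 and 13.7 in DMSO (-0.61 ± 0.26, edgeR adjusted p = 0.600), with actD replicate 3 inside the DMSO range. The median difference of the 4 clustered tRNAs was -0.78, of the 7 minus-strand tRNAs tested -0.61, and of the 14 plus-strand tRNAs -0.16, beside a median of 0.02 over all genes tested. Without DMSO replicate 1 the cluster's median was -0.50, still with 4 of 4 lower. Minus-strand tRNAs made up 62.7% ± 1.4 (SD, n = 3) of tRNA counts in actD and 68.4% ± 2.7 (SD, n = 3) in DMSO, without overlap. Strand here is that of the annotation, since how counting treated strand is not given. The cluster was set out for its p-values in this same comparison. Its median, these strand values and the lower tRNA share at 6 h, which all include it, are therefore no separate support. The minus-strand median is the value of MT-TY, and the minus-strand tRNAs tested outside the cluster stood between -0.30 and -0.19.

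The other tRNAs tested at 6 h had an unadjusted p of 0.05 or more. On the minus strand MT-TS1 (serine), MT-TE (glutamate) and MT-TP (proline) differed by -0.19, -0.30 and -0.21. On the plus strand MT-TF (phenylalanine), MT-TV (valine), MT-TM (methionine) and MT-TW (tryptophan) differed by -0.45, -0.45, -0.25 and -1.24, the last at no more than 0.345 CPM with an SE of 0.73. MT-TL1, MT-TI, MT-TK (lysine), MT-TL2 (leucine), MT-TT (threonine), MT-TH (histidine) and MT-TS2 (serine) lay between -0.30 and -0.01, while MT-TD (aspartate), MT-TG (glycine) and MT-TR (arginine) were at 0.17, 0.07 and 0.18. MT-TQ did not pass the filter on low counts at 6 h. All of these had overlapping arms.

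The 13 mRNAs of the 6 h RNA were all on the lower side, by a median of -0.21, yet 0 of 13 had arms that did not overlap. MT-CO2, for a catalytic subunit of cytochrome c oxidase (complex IV), read 119, 156 and 252 CPM in actD and 360, 255 and 227 in DMSO (-0.67 ± 0.29, edgeR adjusted p = 0.600). Its partner subunits MT-CO1 and MT-CO3 differed by -0.16 and -0.10, MT-CYB of complex III by -0.10, and the ATP synthase subunits MT-ATP8 and MT-ATP6 by -0.32 and -0.19. Among the complex I subunits, MT-ND1, MT-ND2, MT-ND3, MT-ND4L, MT-ND4, MT-ND5 and MT-ND6 stood at -0.06, -0.33, -0.27, -0.28, -0.21, -0.27 and -0.11. The rRNAs MT-RNR1, of the small ribosomal subunit, and MT-RNR2, of the large subunit, were at 0.04 and -0.02. MT-RNR2 read 64616, 62959 and 78112 CPM in actD and 81818, 66402 and 60823 in DMSO, so the actD libraries lay within the range of the DMSO libraries. Individual libraries weighed much here. Leaving out actD replicate 3, the highest actD library, gave an mRNA median of -0.42, and leaving out actD replicate 1 gave -0.04.

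**Figure D2:**
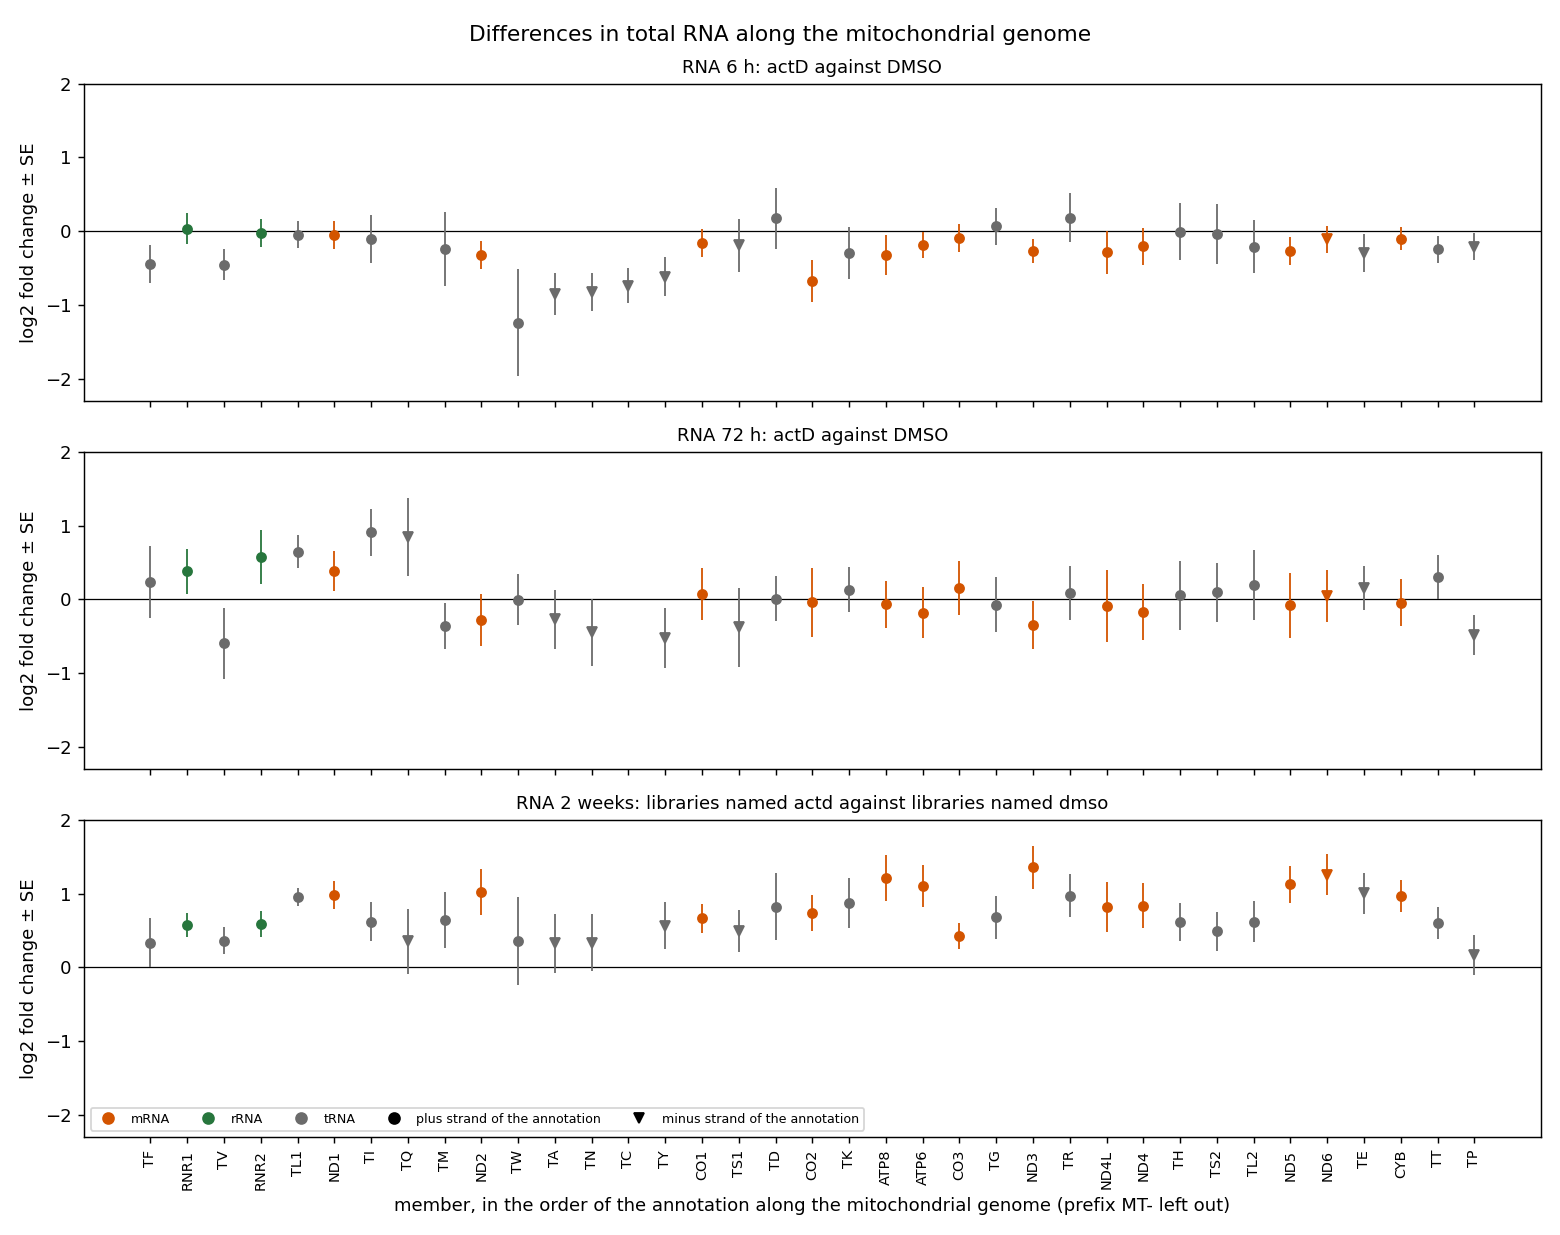
Log2 fold change of RNA for each of the 37 members at 6 h, 72 h and 2 weeks, in the order of the mitochondrial chromosome. Bars are the standard error derived from the F statistic of the edgeR test. Orange marks mRNAs, green rRNAs and grey tRNAs, circles the plus strand and triangles the minus strand, and members that did not pass the filter are left out. At 2 weeks all 36 tested members lie above 0, while at 6 h 32 of 36 lie below.

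RNA at 72 h showed no common direction of the members, and their counts past each limit were not above those of all genes. Of 36 members tested, 18 were higher and 18 lower, with 2 at an unadjusted p under 0.05, against 13.1% of all genes. By edgeR 0 were called, and by DESeq2 0, against 2.87% of all genes. Every actD library was above every DMSO library for 3 of 36, MT-RNR2, MT-TL1 and MT-TI, a share below the 10.5% of all genes, and no member had the arms apart the other way, as 10.3% of genes had.

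The large rRNA MT-RNR2 read 317030, 250200 and 226250 CPM in actD and 226140, 168800 and 137140 in DMSO (0.58 ± 0.37, edgeR adjusted p = 0.537), so the lowest actD library lay just above the highest DMSO library. Its neighbour MT-TL1 read 77.6, 53.9 and 50.5 against 44.5, 35.5 and 36.2 (0.65 ± 0.23, edgeR adjusted p = 0.322). MT-TI, the isoleucine tRNA downstream of MT-ND1, read 8.50, 7.12 and 6.12 against 4.27, 4.87 and 2.46 (0.91 ± 0.32, edgeR adjusted p = 0.318). MT-ND1, which lies between these 2 tRNAs and encodes a complex I subunit, was at 0.39 with overlapping arms, and MT-RNR1 at 0.38. The other mRNAs were near 0 or lower, MT-CO1 at 0.07, MT-CO2 at -0.04, MT-CO3 at 0.15, MT-CYB at -0.05, MT-ATP8 at -0.07 and MT-ATP6 at -0.18. The complex I subunits MT-ND2, MT-ND3, MT-ND4L, MT-ND4, MT-ND5 and MT-ND6 stood at -0.28, -0.35, -0.09, -0.18, -0.08 and 0.05.

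A single library moved the mRNAs of this time point. With actD replicate 3 left out, 12 of 13 mRNAs were higher with a median of 0.25, against 4 of 13 and -0.07 with it, and with actD replicate 1 left out 1 of 13 was higher with a median of -0.37. The rRNA median was 0.48 with all libraries and stayed above 0 whichever library was left out, between 0.31 and 0.62. The minus-strand tRNAs MT-TA, MT-TN, MT-TY, MT-TS1, MT-TP, MT-TE and MT-TQ were at -0.27, -0.45, -0.52, -0.38, -0.49, 0.16 and 0.84. On the plus strand MT-TF, MT-TV, MT-TM and MT-TW were at 0.24, -0.60, -0.36 and -0.01, and MT-TD, MT-TK, MT-TG, MT-TR, MT-TH, MT-TS2, MT-TL2 and MT-TT lay between -0.07 and 0.30. None of these had arms that did not overlap, and MT-TC did not pass the filter.

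In the 2-week RNA the members differed in 1 direction, with larger class medians than in the 6 h and 72 h RNA. Every one of the 36 members tested was higher in the libraries named actd, by a median of 0.98 for the 13 mRNAs, 0.58 for the 2 rRNAs and 0.61 for 21 tRNAs, beside -0.02 over all genes. With library totals in place of TMM these medians were 0.83, 0.42 and 0.45, beside -0.18 over all genes, with all 36 still higher. By edgeR 0 were called, and the lowest adjusted p was 0.106, but 23 had an unadjusted p under 0.05, against 8.93% of all genes. DESeq2, with its own scaling and dispersion, called 13 members higher and 0 lower, against 0.894% of all genes. In 23 of the 36 the arms did not overlap, 10 mRNAs, both rRNAs and 11 tRNAs, against 7.86% of all genes in that direction and 7.83% in the other. Members are cut from shared precursors and can move together in a library. Their counts are therefore not counts of independent results, and the shares of all genes do not measure how unusual they are.

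Complex I subunits had a median of 1.02. MT-ND3 read 26.0, 25.9 and 51.9 CPM in named actd and 12, 11.9 and 16.6 in named dmso (1.36 ± 0.29, edgeR adjusted p = 0.359). MT-ND6, the mRNA of the minus strand, read 76.7, 83.1 and 144 against 42.5, 31.5 and 52.8 (1.26 ± 0.28, edgeR adjusted p = 0.383). MT-ND1 read 416, 470 and 585 against 211, 223 and 309 (0.98 ± 0.19, edgeR adjusted p = 0.319). In all 3 the lowest named actd library was above the highest named dmso library, and DESeq2 called all 3. MT-ND5 and MT-ND2 differed by 1.13 and 1.02, also with separate arms, and MT-ND4 and MT-ND4L by 0.84 and 0.82 with overlapping arms.

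The core subunits of complex IV differed less, with a median of 0.66. MT-CO1 read 4043, 5320 and 6854 CPM in named actd and 3474, 3420 and 3337 in named dmso (0.66 ± 0.19, edgeR adjusted p = 0.434). MT-CO2 differed by 0.74 with separate arms. MT-CO3, at 2719, 3400 and 4039 against 2736, 2604 and 2189, had the smallest difference of the 13 mRNAs (0.43 ± 0.18) and its arms overlapped. MT-CYB, the complex III subunit, read 793, 1121 and 1405 against 609, 472 and 612 (0.97 ± 0.22, edgeR adjusted p = 0.388). MT-ATP8 and MT-ATP6, the overlapping pair of ATP synthase, differed by 1.21 and 1.11, both with separate arms.

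**Figure D3:**
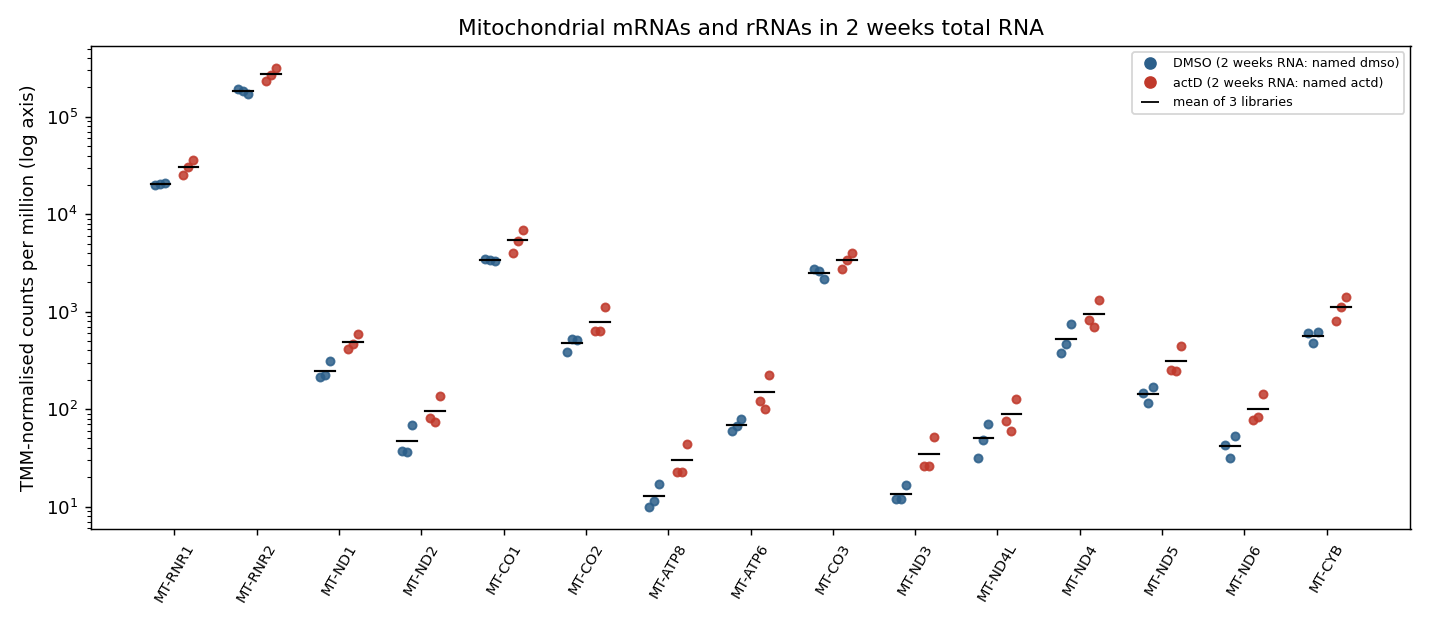
RNA levels of the 13 mRNAs and 2 rRNAs at 2 weeks in CPM on a log axis, with 1 point for each of the 3 libraries named actd and the 3 named dmso and short lines for the arm means. The arms are apart for all but MT-CO3, MT-ND4 and MT-ND4L, and MT-RNR2 lies between 171760 and 317670 CPM.

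Both rRNAs were higher by nearly the same amount. MT-RNR1 read 24995, 30241 and 35614 CPM in named actd and 20088, 20243 and 20737 in named dmso (0.57 ± 0.16, edgeR adjusted p = 0.433). MT-RNR2 read 234390, 269660 and 317670 against 191490, 182080 and 171760 (0.59 ± 0.17, edgeR adjusted p = 0.434). In both the order of the named actd libraries was the same, with replicate 3 at the top, and no library of 1 arm reached the other.

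Among the tRNAs MT-TL1 was the member with the lowest p-value of the 36. It read 35.5, 39.1 and 44.2 CPM in named actd and 18.8, 20.4 and 21.8 in named dmso (0.96 ± 0.12, edgeR adjusted p = 0.106). MT-TE on the minus strand differed by 1.00 and MT-TR by 0.97, with separate arms. The arms were separate for 10 of 14 plus-strand tRNAs, MT-TV, MT-TL1, MT-TI, MT-TM, MT-TK, MT-TG, MT-TR, MT-TH, MT-TS2 and MT-TT, at 0.36, 0.96, 0.62, 0.64, 0.87, 0.68, 0.97, 0.61, 0.49 and 0.61. They overlapped for MT-TF, MT-TW, MT-TD and MT-TL2, at 0.34, 0.36, 0.82 and 0.62. On the minus strand only MT-TE had separate arms, and MT-TQ, MT-TA, MT-TN, MT-TY, MT-TS1 and MT-TP were at 0.35, 0.33, 0.33, 0.57, 0.50 and 0.17. Without named actd replicate 3 the medians were 0.70 for mRNAs, 0.46 for rRNAs and 0.36 for tRNAs, with 13 of 13, 2 of 2 and 17 of 22 higher. The 5 others were MT-TA, MT-TN, MT-TW and MT-TP, then at -0.06, -0.03, -0.12 and -0.02, and MT-TC, whose few counts are described below.

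The minus-strand mRNA was compared with the 12 others within each library, a ratio that needs no scaling. How counting treated strand is not given, so its counts may include RNA of the opposite strand. MT-ND6 gave 0.767, 0.683 and 0.882 counts per 100 counts of plus-strand mRNAs in named actd at 2 weeks and 0.525, 0.394 and 0.65 in named dmso, without overlap. At 6 h the means were 0.437 in actD and 0.42 in DMSO, and at 72 h 1.31 and 1.25, with overlap at both.

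Levels of the mRNAs relative to each other were read per length, as the share of each in the sum of the 13 counts per base. In RNA the complex IV mRNAs led in every table. MT-CO3 took 39.0% ± 2.5 (SD, n = 3) of the DMSO sum at 6 h, 31.2% ± 1.4 at 72 h and 40.9% ± 4.8 at 2 weeks in named dmso. MT-CO1 followed with 24.7%, 16.6% and 28.3%, and MT-CO2 with 10.9%, 14.9% and 8.88%. At 6 h and 2 weeks these 3 did not overlap each other, whereas at 72 h MT-CO1, from 12.7% to 22.4%, and MT-CO2, from 11.4% to 17.4%, did. Next came MT-ND4 at 6 h and 72 h with 5.70% and 7.35%, and MT-CYB at 2 weeks with 6.32%. The lowest mRNAs were MT-ND3 at 6 h and 2 weeks, with 0.663% and 0.499%, and MT-ND2 at 72 h with 1.55%. At 6 h MT-ND3, from 0.569% to 0.748%, overlapped its neighbour MT-ND6, from 0.735% to 0.88%, and MT-ND4, MT-ND4L, MT-CYB and MT-ND1, at means of 5.70%, 4.53%, 4.11% and 4.09%, each overlapped the next in this order, while every MT-ND4 value lay above those of MT-CYB and MT-ND1. At 2 weeks MT-ND3, from 0.442% to 0.611%, overlapped MT-ND2, from 0.45% to 0.842%, and MT-CYB, from 5.31% to 6.84%, overlapped MT-ND4, from 3.51% to 6.85%.

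Footprints ranked the mRNAs differently. In DMSO at 6 h MT-CO2 led with 22.9% ± 2.5 (SD, n = 3) of the footprint sum per base, then MT-CO3 with 14.3%, MT-CO1 with 13.3% and MT-ND5 with 10.7%. MT-CO2 led at 72 h with 23.7% ± 14, and MT-CO1, MT-CO2 and MT-ND5 stood at 16.9%, 16.7% and 15.5% at 2 weeks, where their ranges overlapped. MT-CO3, first in RNA, held 6.42% of the footprints at 2 weeks. Its share in footprints was 0.367, 0.152 and 0.157 times its share in RNA at 6 h, 72 h and 2 weeks, and MT-CO1 stood at 0.539, 0.808 and 0.597 times. MT-ND5, the longest mRNA, stood at 8.49, 3.66 and 15.3 times. MT-ND3 stood at 6.95, 3.43 and 14.8 times, and the actD libraries gave the same order for MT-ND5 over MT-CO1 over MT-CO3 at each time point. These ratios rest on few footprints per gene, 3 to 7 for MT-CO3 and 17 to 37 for MT-ND5 in a DMSO library at 2 weeks, and the 2 assays differ in library kit and fragment length. At 2 weeks the arms of the RNA are by library name. With the titles taken as right, the 2-week ratios set footprints of 1 arm against RNA of the other.

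**Figure D4:**
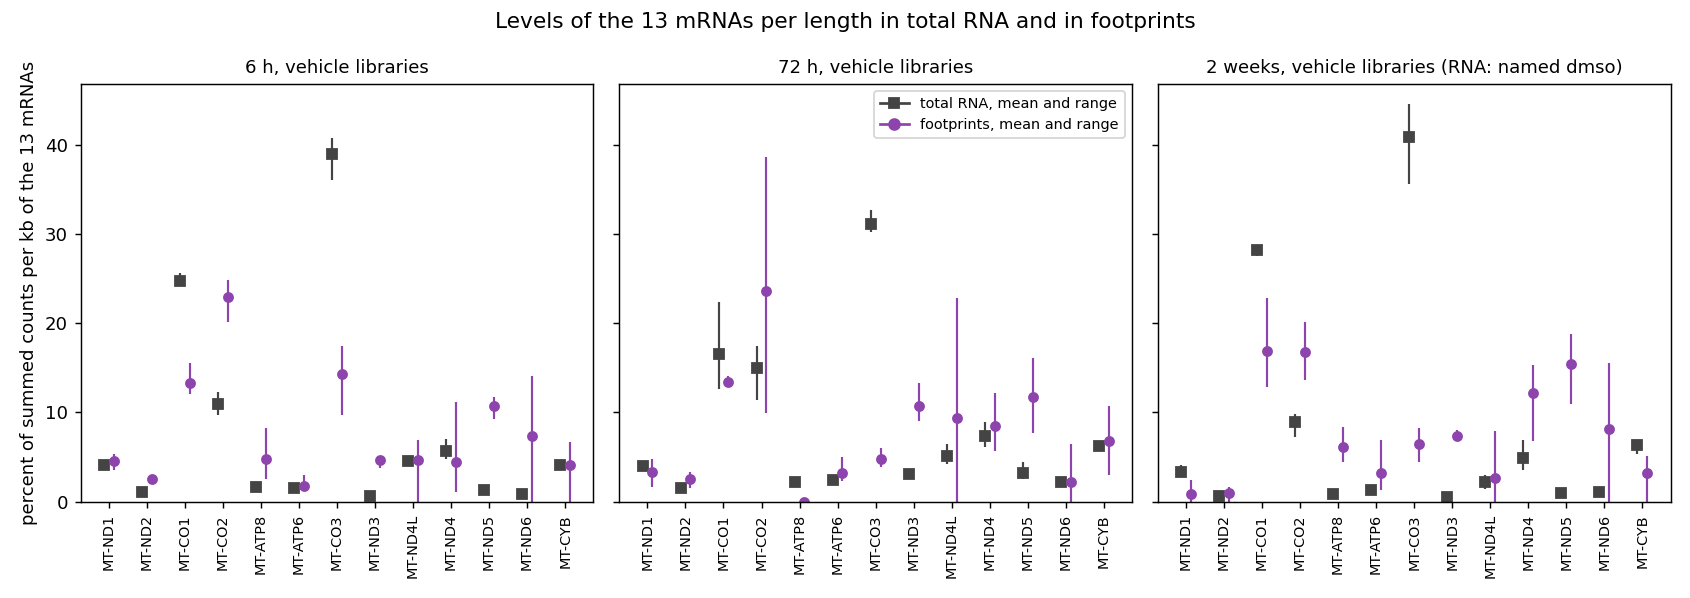
Share of each of the 13 mRNAs in the sum of their counts per length, in percent, at 6 h, 72 h and 2 weeks, with total RNA as grey squares and footprints as purple circles. Points are means and bars the range of the 3 DMSO libraries (RNA named dmso at 2 weeks), and MT-CO3 stands lower in footprints than in RNA and MT-ND5 higher at each of the 3 time points.

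Footprints at 6 h were higher in actD for most tested members, with wide errors. Of 14 members tested 13 were higher, 0 were called by edgeR, beside 0% of all genes, or by DESeq2, beside 0.825%, and 1 had an unadjusted p under 0.05, against 3.14% of genes. The 1 member was MT-ND4, a complex I subunit, with 11, 71 and 20 counts in actD and 18, 6 and 6 in DMSO, or 22.7, 188 and 45.0 CPM against 18.4, 7.79 and 15.7 (2.59 ± 0.87, edgeR adjusted p = 0.889). It was also the 1 tested member with separate arms, against 3.71% of genes. Divided by library totals instead, its values of 8.59, 162 and 55.1 in actD overlapped those of 37.6, 8.60 and 12.9 in DMSO. MT-ND4L, whose end overlaps its start, had 17, 0 and 0 counts in actD and 0, 8 and 8 in DMSO, the reverse pattern by library. The sum of the pair was 28, 71 and 20 counts in actD and 18, 14 and 14 in DMSO, in libraries of 363273 to 1281039 counts. Without actD replicate 2, the library with 71 counts, the MT-ND4 difference was 1.19.

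MT-CYB showed the same on-and-off counts at 6 h, with 65, 0 and 0 in actD and 0, 30 and 25 in DMSO, which are the same libraries as for MT-ND4L. Its difference was 0.43 ± 1.93. The remaining mRNAs tested were MT-ND1, MT-ND5, MT-ND6, MT-CO1, MT-CO2 and MT-CO3, at 1.45, 1.07, 1.23, 0.98, 0.79 and 0.53 with an SE of 0.85 or more each. The rRNAs MT-RNR1 and MT-RNR2 were at -0.33 and 0.59, and the tRNAs MT-TF, MT-TS2, MT-TE and MT-TP at 1.12, 1.02, 1.5 and 1.01. Both scaling and single libraries moved their size. With library totals in place of TMM the mRNA median was 0.32, with 6 of 8 higher, the rRNA median was -0.48, and the median over all genes shifted from 0.11 to -0.55. The mRNA median of 1.02 became 0.23 without DMSO replicate 1, 0.38 without actD replicate 1, 0.67 without DMSO replicate 2 and 1.76 without DMSO replicate 3. The tRNA median of 1.07 became 0.25, 0.16, 0.91 and 1.83 in the same order, and 1.62 without actD replicate 3.

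At 72 h, 5 members passed the filter in the footprints, and all 5 were higher in actD. A member can pass the filter through the arm in which it is high. Counts of directions among tested members of a footprint comparison are therefore no separate support. By edgeR 0 were called, against 3.79% of all genes, 2 had an unadjusted p under 0.05, against 27.3%, and DESeq2 called 0, against 4.41%. MT-ND5, at the end of the complex I membrane arm, had 89, 39 and 52 counts in actD and 19, 9 and 6 in DMSO, or 133, 106.05 and 61.9 CPM against 43.0, 30.2 and 74.6 (1.15 ± 0.47, edgeR adjusted p = 0.164). MT-ND4 had 48, 21 and 25 counts against 11, 5 and 3 (1.13 ± 0.47, edgeR adjusted p = 0.174), and without actD replicate 3 its adjusted p was 0.0444 at a difference of 1.55, in a fit that called 10.4% of all genes. In both the shallow DMSO replicate 3 lay inside the actD range on the CPM scale. MT-CO1 differed by 0.45 (edgeR adjusted p = 0.534).

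The rRNA fragments of the 72 h footprints had separate arms for 1 of 2 genes. MT-RNR1 read 8202, 6871 and 10769 CPM in actD and 2848, 5029 and 5112 in DMSO (0.99 ± 0.53, edgeR adjusted p = 0.257), without overlap, as for 19.5% of genes in that direction. MT-RNR2 read 237330, 169130 and 91374 against 50815, 29641 and 196820 (0.84 ± 0.85, edgeR adjusted p = 0.542). DMSO replicate 3 thus lay between the actD libraries for MT-RNR2 but not for MT-RNR1, and without it the difference of MT-RNR2 was 2.09. Of the mRNAs not tested, MT-CO2, MT-CO3, MT-CYB, MT-ND1, MT-ND2, MT-ND3, MT-ND6, MT-ATP6, MT-ATP8 and MT-ND4L, none passed the filter on low counts. MT-CO3, for example, had 14, 6 and 11 counts in actD and 2, 3 and 1 in DMSO. Mean CPM was higher in actD for MT-CO3, MT-ND1, MT-ND6 and MT-ATP8, with separate arms for MT-CO3 and MT-ATP8. The mean was lower in actD for MT-CO2 (19.1 against 34.8), MT-CYB (11.8 against 15.8), MT-ND2, MT-ATP6 and MT-ND4L. MT-ND3 was lower too, at 2.90 against 8.64 with separate arms. MT-ATP8 had 0 counts in all 3 DMSO libraries and MT-ND4L 0 in all 3 actD libraries, each of which allows up to 3 counts a library.

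Footprints at 2 weeks gave 8 tested members, 6 higher and 2 lower in actD. By edgeR 0 were called, against 0% of genes, 0 had an unadjusted p under 0.05, against 8.57%, and DESeq2 called 0, against 0%. MT-RNR1 read 32463, 38917 and 58210 CPM in actD and 25065, 29209 and 22677 in DMSO (0.75 ± 0.33, edgeR adjusted p = 0.562), the 1 tested member with separate arms, against 8.32% of genes. MT-RNR2 read 14989, 18988 and 27180 against 2554, 10164 and 16652 (1.06 ± 0.63, edgeR adjusted p = 0.616), with DMSO replicate 3 inside the actD range, and without DMSO replicate 1 its difference was 0.61. The mRNAs MT-CO1, MT-CO2, MT-ND4 and MT-ND5 were at 0.42, 0.39, 0.37 and 0.33, all with overlap. The tRNAs MT-TS2 and MT-TE were at -0.38 and -0.17. Leaving out 1 library gave medians of 0.08 to 0.69 for mRNAs, 0.59 to 1.13 for rRNAs and -0.62 to 0.51 for tRNAs. These cover the members that passed the filter in each such fit. Without DMSO replicate 3, 2 of the 8 members changed sign. The other 9 mRNAs had too few counts, such as 5, 10 and 12 for MT-CO3 in actD against 3, 6 and 7 in DMSO. With library totals the rRNA median was 0.75, beside -0.11 over all genes.

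Translational efficiency, the footprint value relative to the RNA value, was tested as the interaction of assay and treatment. rRNAs and tRNAs are not translated, so their values, here and at 2 weeks, only set their fragments in footprint libraries against their RNA. At 6 h, 0 of 14 members were called by edgeR, against 0% of all genes, 1 had an unadjusted p under 0.05, against 5.26%, and DESeq2 called 0, against 0.105%. That member was again MT-ND4 (2.87 ± 0.96, edgeR adjusted p = 0.585). The 8 mRNAs tested had a median of 1.48, the rRNAs 0.08 and the 4 tRNAs 1.58, beside -0.03 over all genes. With library totals the mRNA median was 0.65 and that over all genes -0.75. Leaving out 1 library gave medians of 0.63 (without footprint actD replicate 1) to 2.23 (without footprint DMSO replicate 3) for mRNAs, and of 0.47 to 2.37 without the same libraries for tRNAs, and the rRNA median lay between -0.16 and 0.22. At 72 h, 0 of 5 members were called by edgeR, against 0.433% of genes, 0 had an unadjusted p under 0.05, against 14.9%, and DESeq2 called 0, against 2.55%. MT-ND4 stood at 1.16, MT-ND5 at 1.07, MT-CO1 at 0.22, MT-RNR1 at 0.45 and MT-RNR2 at 0.10. With library totals the medians were 1.29 for the 3 mRNAs and 0.69 for the rRNAs, beside 0.19 over all genes. Leaving out 1 library gave 0.38 (without footprint actD replicate 2) to 1.35 (without RNA actD replicate 1) for mRNAs and 0.05 (without footprint DMSO replicate 1) to 0.94 (without footprint DMSO replicate 3) for rRNAs.

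The efficiency at 2 weeks depends on which label of the RNA libraries is right. By library names 0 of 8 members were called by edgeR, against 0% of genes, 0 had an unadjusted p under 0.05, against 5.14%, and DESeq2 called 0, against 0.0694%. The mRNAs MT-ND5, MT-ND4, MT-CO2 and MT-CO1 stood at -0.85, -0.53, -0.42 and -0.31, the tRNAs MT-TE and MT-TS2 at -1.23 and -0.95, and MT-RNR2 and MT-RNR1 at 0.40 and 0.11. With the RNA libraries grouped by their titles 6 of these 8 changed sign, all but the rRNAs, and all 8 were above 0. By edgeR 0 were then called, against 1.87% of genes, and 2 had an unadjusted p under 0.05, against 20.7%, MT-ND5 at 1.45 ± 0.50 (edgeR adjusted p = 0.137) and MT-RNR1 at 1.31 ± 0.54 (edgeR adjusted p = 0.207).

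Whether the difference between actD and DMSO itself changed with time was tested within an assay. For RNA at 72 h against 6 h, 0 of 37 members were called by edgeR, against 0.0165% of genes, 2 had an unadjusted p under 0.05, against 8.02%, and DESeq2 called 1, against 0.664%. The 2 were MT-TI (1.00, edgeR adjusted p = 0.608) and MT-TC, whose values are given below. Class medians of this change were 0.16 for mRNAs, 0.45 for rRNAs and 0.36 for tRNAs, beside -0.03 over all genes, and with scaling on nuclear protein-coding genes 0.30, 0.58 and 0.50, beside 0.09. Without actD replicate 1 of 72 h they were -0.13, 0.31 and 0.03, and without actD replicate 3 of 72 h 0.51, 0.64 and 0.63. The mRNA median was also below 0, at -0.02, without actD replicate 1 of 6 h or DMSO replicate 3 of 72 h. For footprints at 72 h against 6 h, 0 of 14 members were called by edgeR, against 0% of genes, 0 had an unadjusted p under 0.05, against 6.54%, and DESeq2 called 0, against 0.166%. For footprints at 2 weeks against 72 h, 0 of 9 were called by edgeR, against 0.0532% of genes, 0 had an unadjusted p under 0.05, against 7.5%, and DESeq2 called 0, against 0.266%. The largest of these was MT-CYB at 1.92 ± 1.24. Tables of different time points were made and counted apart, so time and preparation cannot be told apart in any level set across them.

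The balance of the 2 rRNAs differed between tables more than between treatments. In cells they are made from 1 precursor, MT-RNR1 upstream of MT-RNR2, with the tRNA MT-TV between them. MT-RNR1 made up 9.49% to 13% of the rRNA counts in the 6 h RNA, from 5.72% up to 9.16% in the 72 h RNA and from 9.49% up to 10.8% in the 2-week RNA. The footprints gave a range of 5.84% to 26.2% after 6 h, of 2.53% to 14.5% after 72 h and of 57.7% to 90.8% after 2 weeks. In the 2-week footprints the 3 actD libraries lay within 67.2% to 68.4%, and the 3 DMSO libraries, at 90.8%, 74.2% and 57.7%, on both sides of them. The arms overlapped in all 6 tables.

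**Figure D5:**
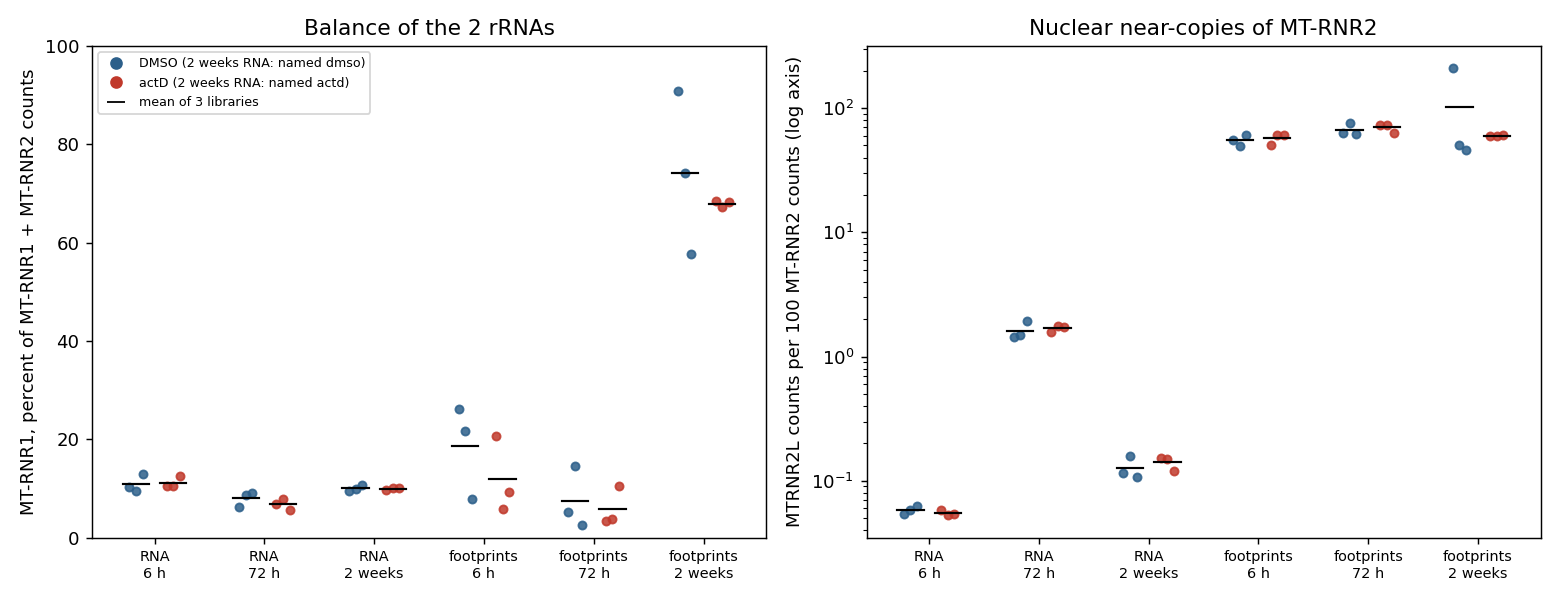
Left, MT-RNR1 as percent of the counts of both mitochondrial rRNAs, and right, counts of MT-RNR2-like nuclear genes per 100 MT-RNR2 counts on a log axis, by assay and time point, with points for libraries, colours for the actD and DMSO arms and short lines for means of 3 libraries. The 6 footprint libraries of 2 weeks lie between 57.7% and 90.8% on the left, above all other libraries, and on the right footprints lie at 45.7 or more and RNA at 1.93 or less.

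Nuclear genes that resemble mitochondrial ones had more counts, relative to the members, in footprints than in RNA. Which of these counts came from mitochondrial transcripts was not tested. By symbol 407 such near-copies are listed in the RNA tables, and 11 are listed in the footprint tables. As percent of mitochondrial counts, their sum lay between 0.242 and 0.307 in the 6 h RNA, between 1.98 and 2.64 in the 72 h RNA and between 0.309 and 0.375 in the 2-week RNA. In the footprints it was 30.1% to 54.5%, 56.5% to 70.7% and 13% to 19.6%. Most mitochondrial counts were rRNA (7.71% of the 6 h actD RNA against 0.325% for mRNAs), so near-copies of mRNAs weigh more beside the mRNAs. In RNA at 6 h and 2 weeks the leading near-copy was MTCO1P12, a pseudogene of MT-CO1 on chromosome 1, with 6947 to 11301 and 19699 to 34110 counts, followed by MTRNR2L12 and, at 6 h, MTATP6P1 (802 to 1241 counts) or, at 2 weeks, MTRNR2L8. MT-ATP6 itself averaged 33.0 CPM in actD and 37.6 in DMSO at 6 h, in libraries of 58421293 to 69240041 counts. The values of MT-CO1 and MT-ATP6, and their shares per length, are therefore uncertain too. At 72 h MTRNR2L8, an MT-RNR2-like gene on chromosome 11, led with 42741 to 128144 counts, before MTRNR2L12 and MTCO1P12. In the footprints MTRNR2L12 on chromosome 3 led, with 1284 to 4154, 6184 to 112350 and 2448 to 8465 counts, before MTRNR2L8 and MTRNR2L1.

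These genes carry near-identical copies of MT-RNR2 sequence, so their counts and those of MT-RNR2 are uncertain. Per 100 MT-RNR2 counts the MT-RNR2-like genes had between 49.3 and 61.0 counts in the 6 h footprints, between 61.5 and 75.3 in the 72 h ones and between 45.7 and 209 in the 2-week ones, the highest in DMSO replicate 1. The next 2-week library had 60.9, so that replicate stood apart, and it also had the lowest MT-RNR2 count, 1649 against 11034 to 18647 in the other 5. In RNA the same ratio was at most 0.063 at 6 h, 1.93 at 72 h and 0.157 at 2 weeks.

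MT-TC, the cysteine tRNA of the minus-strand cluster, was counted in an on-or-off way in 2 RNA tables. At 6 h it had 544 to 1613 counts in each of the 6 libraries. At 72 h it had 1, 1551 and 432 counts in actD and 1, 1 and 1 in DMSO, and at 2 weeks 2, 2 and 2 in named actd and 2, 585 and 1007 in named dmso. Its neighbour MT-TY, with which it shares 1 base, had 1534 to 4780 counts at 72 h and 553 to 1500 at 2 weeks in all libraries. MT-TC therefore stood at 2 counts or fewer in 4 of 6 libraries of each table, in either arm, and did not pass the filter there. In the test of RNA at 72 h against 6 h its fitted difference of 9.82 (edgeR adjusted p = 0.233) depends on the prior count given to those libraries and is no measure of size.

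The nuclear genes that make, process and translate these transcripts were listed from knowledge of the pathway, 54 genes for transcription, mitochondrial DNA replication, tRNA processing, RNA stability and decay, rRNA modification and translation factors. All 54 were tested in RNA, and 0 were called by edgeR at 6 h, 72 h or 2 weeks. DESeq2 called 1 lower at 6 h, POLRMT (-0.63, DESeq2 adjusted p = 0.0483), 1 lower at 72 h, LRPPRC (-1.28, DESeq2 adjusted p = 0.00424), and 0 at 2 weeks, against 0.869%, 2.87% and 0.894% of all genes. At 6 h 19 were higher and 35 lower, with 5 at an unadjusted p under 0.05, 1 higher and 4 lower. The counts were 20 and 34 at 72 h, with 2 higher and 4 lower at an unadjusted p under 0.05, and 23 and 31 at 2 weeks, with 0 and 6. Over all genes 8.21%, 13.1% and 8.93% had such a p, so the list of 54 lay near that background. Medians were -0.06, -0.18 and -0.07, beside 0.02, 0.02 and -0.02 over all genes.

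POLRMT, the mitochondrial RNA polymerase, differed by -0.62 ± 0.15 at 6 h (edgeR adjusted p = 0.373), by -0.52 ± 0.46 at 72 h (0.655) and by -0.35 ± 0.10 at 2 weeks (0.449). LRPPRC, which binds and stabilises mitochondrial mRNAs, differed by -0.48, -1.27 and -0.40 (edgeR adjusted p = 0.586, 0.230 and 0.565), while its partner SLIRP stood at 0.02, 0.33 and 0.24. TFAM, which packages mitochondrial DNA and starts its transcription, differed by 0.31, -0.03 and 0.14, and the initiation factor TFB2M by -0.06, -0.28 and -0.05. The elongation factor TEFM was at -0.10, 0.26 and -0.27. Of the tRNA processing enzymes, ELAC2, which cuts the 3′ ends, was at -0.22, -0.72 and -0.36, and TRMT10C, a part of the enzyme that cuts the 5′ ends, at 0.02, -0.62 and -0.20. In footprints 3, 10 and 2 of the 54 were tested at the 3 time points and 0 were called by edgeR or DESeq2, with a lowest edgeR adjusted p of 0.063 at 72 h. For footprints at 2 weeks against 72 h, 16 of the 54 were tested and edgeR called 0. DESeq2 called 1 there, PTCD1 (-4.12, DESeq2 adjusted p = 0.0328), against 0.266% of all genes.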

How the data were processed

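Total RNA and ribosome footprints were measured in 36 libraries, 12 groups of 3. The authors deposited a table for every pair of assay and time point, whose columns are libraries and whose whole-number values are taken here as estimated counts (expected counts) per gene. HISAT2, StringTie and hg38 are named per the submitters' processing notes, without versions. How reads with several matching places and strand were treated is not given in the sources used here. Low values of the RNA tables of 6 h and 2 weeks cluster at steps of 2.67, where 1 fragment thus weighed more than 1 count, and levels are compared only within a table. RNA libraries came from stranded total RNA kits and footprints from a small RNA kit after rRNA depletion, per the labels' protocols. These name 2 extraction and 2 library kits without assigning them, so that batch could not be examined.

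Identifiers without version matched GENCODE release 29 for 99.4194% of RNA rows and 99.3621% of footprint rows. Counts were tested with edgeR 4.0.16 (R 4.3.3), TMM scaling, filterByExpr, two-sided, each table alone on its 6 libraries. Each SE of an edgeR difference was derived as the absolute log2 fold change divided by the square root of the F statistic. Efficiency and time comparisons were interactions over 12 libraries, without the 2-week RNA libraries in the time comparisons because of their labels. Class shares are percent of a library's counts. Alternatives were DESeq2 1.42.0, library totals, scaling on nuclear protein-coding genes with and without near-copies, no filter, 1 fit over all time points, a replicate block, leaving out each library, and grouping RNA libraries by title. The scaling without near-copies, and the sum of mitochondrial rRNAs with MT-RNR2-like genes, were chosen after seeing the data. The fits were tested on simulated data. No 2 libraries of a group were duplicates. All mRNAs and rRNAs are named in each RNA table, tRNAs where they passed the filter, 8 genes of the machinery list and PTCD1, which DESeq2 called, and the 3 near-copies with the highest mean count. The members and lists were chosen with earlier results of these data known.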

Additional observations from a re-analysis of the deposited data

How the results depend on the processing

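Members called by edgeR, 0 in each of the 12 comparisons, became 13 with DESeq2 in RNA at 2 weeks, 1 with DESeq2 in RNA at 72 h against 6 h (MT-TC), and 1 with 1 fit over 3 time points in RNA at 72 h (MT-TC), where 1212 genes in all were called instead of 1. Leaving out 1 library gave 0 to 1 members called in RNA at 72 h (1 without actD replicate 1), RNA at 2 weeks (1 without named dmso replicate 1), footprints at 72 h (1 without actD replicate 3) and RNA at 72 h against 6 h (1 without RNA 72 h actD replicate 1), and 0 to 0 in the other 8. All but the call in footprints, MT-ND4, concern MT-TC.

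Log2 ratios of class shares per nuclear protein-coding count, in place of all counts, were 1.17 instead of 0.31 for mRNA in footprints at 6 h, 0.0845 instead of 0.48 for mRNA in footprints at 72 h, 0.60 instead of 0.43 for rRNA in RNA at 2 weeks, and 0.59 instead of 1.23 for rRNA in footprints at 72 h. Those nuclear counts include the MT-RNR2-like genes. For tRNA in footprints at 2 weeks leaving out 1 library gave -0.73 to 0.35, against -0.41, with the sign changed without DMSO replicate 3. Of 18 share ratios, 8 had another sign under some alternative. The cause was not tested.

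Of 3329 pairs of a member result and an alternative, 3068 kept sign and call, 245 changed the sign of a difference that was not called, 16 became calls and 0 calls were lost. DESeq2 called 197, 608 and 189 genes in RNA at 6 h, 72 h and 2 weeks where edgeR called 0, 1 and 0, 10 against 0 in footprints at 6 h, 59 against 10 in efficiency at 72 h, and 161 against 4 in RNA at 72 h against 6 h. It called 5 against 0 and 10 against 2 in the footprint time comparisons. Without a filter 16, 321 and 11 genes were called in footprints at 6 h, 72 h and 2 weeks, and with library totals 5 at 72 h instead of 92. Replicate numbers were not used as pairs in the main fits, since in no comparison did every same-numbered pair correlate above 0.1. That limit cannot show that pairing is absent. With the replicate block 0 members were called in any comparison and 0 genes in all, against 92 in footprints at 72 h and 10 in efficiency at 72 h. In RNA at 72 h 6 of 6 libraries correlated best with their own number, a hint from the data and not the design. Between RNA and footprints, 10, 7 and 11 of 12 libraries did so at 6 h, 72 h and 2 weeks (RNA by library name). Of the 6 same-numbered pairs of assays, 0, 5 and 5 correlated above 0.1. The main efficiency tests took no account of such pairs. Few footprint counts per member limit the footprint and efficiency results.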
